A study of Sus scrofa with 12 samples.

Results

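Open chromatin regions of porcine skeletal muscle that lie crowded together along the chromosomes were examined here, in windows of 100 kb. ATAC-seq had been performed on the longissimus dorsi, the long back muscle, of 180-day-old boars of the Duroc breed and of the Luchuan breed. The 3 boars per breed were kept under the same conditions with free access to food, and all were fasted overnight before death. The deposited peak table gave 1 read count per interval and breed, pooled over boars, so no comparison between breeds could be tested. The RNA-seq samples of the study were not used here. The 217213 deposited intervals merged into 140093 regions wherever they overlapped. Of these, 136586 lay on chromosomes 1 to 18, in 18417 windows of 100 kb counted from position 1 of each chromosome. A window was called dense when it held 20 or more merged regions by midpoint. There were 1006 dense windows, or 5.46% of the windows with a region. They held 24563 merged regions, of which 14 were 2000 bases or longer and were left out. The remaining 24549 of the 136586 autosomal regions are the members described below.

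ATAC-seq uses a transposase that inserts sequencing adapters where DNA is not wrapped tightly in nucleosomes, so promoters, enhancers and other regulatory elements gather reads. Genes that define a cell type often carry many such elements close together, both around their start and within their introns. In skeletal muscle the contractile filament proteins, the calcium release machinery and the myogenic transcription factors are genes of this kind. Duroc is a lean, fast-growing breed and Luchuan is a smaller, fat-type Chinese breed.

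Breeds were compared through a scaled log2 ratio. The autosomal regions held 20275757 Duroc reads and 13460021 Luchuan reads, so Luchuan counts were multiplied by 1.51 before division. A value below 0 means more scaled reads in Duroc, and a value above 0 more in Luchuan. Intervals after these ratios are 95% Clopper-Pearson intervals of the read counts. They cover counting error only and say nothing of the spread between boars, and PCR reads are not independent molecules. In bulk muscle, a change in the share of nuclei of a type cannot be told apart from a change in accessibility per nucleus.

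Several of the windows with the most regions lay on giant muscle genes. The median window of the autosomes held 6 regions and the densest held 75. Among the dense windows, 655 held 20 to 24 regions, 122 held 30 or more and 17 held 40 or more. Adjacent members of a dense window were separated by a median gap of 2.32 kb. The 180 windows with exactly 20 regions had a median log2 ratio of -0.02, with a median of 83 Duroc and 52 Luchuan reads per member. The 198 windows with exactly 19 regions, just outside the rule, had a median log2 ratio of -0.05 with 82 and 51 reads per region. Dense windows were most frequent on chromosome 12, at 7.41% of its windows, and on chromosome 6, at 7.34%. They were least frequent on chromosome 11, at 2.01%.

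**Figure D1:**
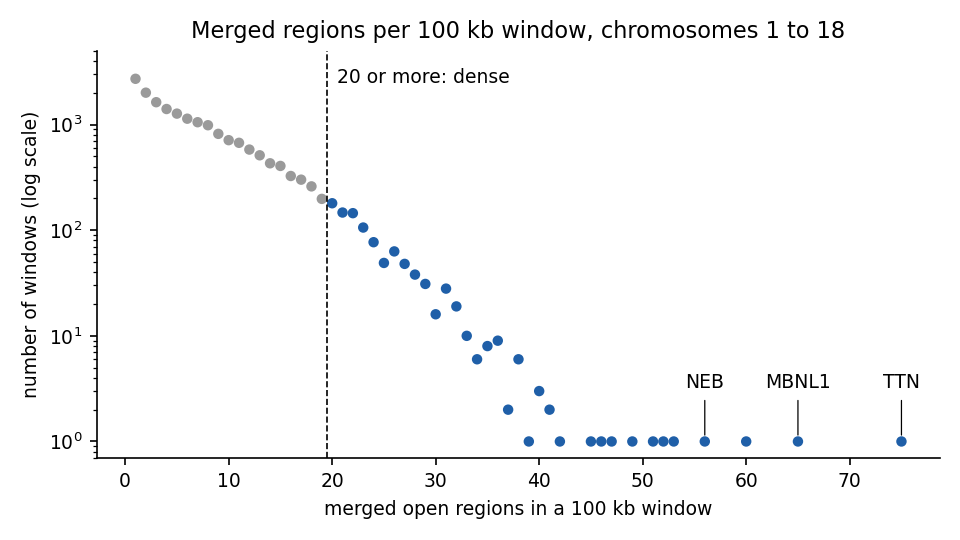
Number of autosomal 100 kb windows (log scale) against the number of merged open regions in the window, with the minimum of 20 regions as a dashed line and dense windows in blue. Windows grow rarer as the number of regions rises, and the single windows at 56, 65 and 75 regions lie on NEB, MBNL1 and TTN.

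The densest window, chr15:84400001-84500000 of Sscrofa11.1, lay wholly within TTN, which encodes titin, the giant elastic protein that spans the sarcomere from Z-disc to M-band. Its 75 members held 20765 Duroc and 13477 Luchuan reads, a log2 ratio of -0.03 (-0.06 to -0.0012). Of them, 53 were called as peaks in both breeds, 17 in Duroc only and 5 in Luchuan only. Single members ranged from -0.93 to 0.32 on the scaled log2 scale, and 0 of them passed a 2-fold difference in either direction. The member with the most reads, chr15:84439988-84440963, held 1110 Duroc and 786 Luchuan reads and lay 60.8 kb from the nearer end of TTN. The preceding window by coordinate, chr15:84300001-84400000, held 60 members, all inside TTN, with 13169 Duroc and 8670 Luchuan reads (-0.01, -0.05 to 0.03). The window chr15:84200001-84300000 reached one end of TTN and the neighbouring PLEKHA3, a phosphoinositide-binding protein. Its 53 members tilted towards Luchuan, with 15298 Duroc and 11986 Luchuan reads (0.24, 0.20 to 0.27), and 47 of the 53 shared that sign. The strongest member there lay 1.75 kb outside TTN and held 1965 Duroc and 1287 Luchuan reads. Thus along a single gene the summed ratio of neighbouring windows differed by more than their counting intervals.

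NEB, which encodes nebulin, the protein that runs along the thin filament, held more scaled reads in Duroc in both of its densest windows. The window chr15:600001-700000 had 56 members with 11355 Duroc and 6241 Luchuan reads (-0.27, -0.32 to -0.23). The window chr15:700001-800000, which also reached RIF1, a regulator of DNA replication timing and repair, had 52 members with 10583 and 5490 reads (-0.36, -0.40 to -0.31). The tilt was spread over the gene, since 52 of 56 members in the first window and 45 of 52 in the second shared the sign of their window. In the first window 29 members were called in both breeds, 24 in Duroc only and 3 in Luchuan only. Its lowest member, chr15:672973-673166, held 105 Duroc and 20 Luchuan reads (-1.77, -2.57 to -1.10).

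The other windows among the 8 with the most regions lay on a splicing regulator, a cluster of small genes and a reductase gene. MBNL1 encodes a muscleblind protein that controls the splicing of muscle transcripts. Its window chr13:92600001-92700000 had 65 members with 10148 Duroc and 6750 Luchuan reads (0.0028, -0.04 to 0.05), and its members ranged from -0.65 to 0.56. The window chr4:99300001-99400000 held HFE2 (hemojuvelin, a co-receptor for bone morphogenetic proteins made in muscle), TXNIP (an inhibitor of thioredoxin and of glucose uptake), POLR3GL (a subunit of RNA polymerase III), ANKRD34A and LIX1L. Of its 51 members, 24 lay within 2 kb of a gene end, against 0 of 75 in the densest TTN window. Reads there were 12579 in Duroc and 8913 in Luchuan (0.09, 0.05 to 0.13). The window chr4:118200001-118300000 on FRRS1, a ferric chelate reductase, had 49 members with 7026 Duroc and 4021 Luchuan reads (-0.21, -0.27 to -0.16). Of these 8 windows, 0 reached a log2 ratio of 0.5 in either direction.

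Members of dense windows were deeper inside genes than open regions at large. Of the members, 76.6% (95% Wilson interval 76.1% to 77.2%) had their midpoint inside a protein-coding gene, against 63.9% of all autosomal regions. This share rose with the number of regions in the window. It was 69.4% in windows with 15 to 19 regions, 68.2% at exactly 19 and 72.2% at exactly 20. Only 14.2% (13.8% to 14.7%) of members lay within 2 kb of a gene end, against 17.1% of all autosomal regions. The Wilson intervals here and below treat members as independent. Members of 1 window share genes and neighbours, so these intervals are too narrow. Among regions with 100 or more reads, the shares near a gene end were 18.4% in dense windows and 25.4% overall. The annotation used here gives gene bodies without exons or strand, so exons, introns, untranslated regions and promoters were not separated. The number of genes in the window moved with this share. In the 482 dense windows with 1 gene, 4.43% of members lay near a gene end. The share was 18.6% in the 398 windows with 2 to 4 genes and 50.2% in the 98 windows with 5 or more. The remaining 28 dense windows, 2.78%, held no protein-coding gene, compared with 23.9% of all windows.

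Members resembled other open regions in length and held more reads. Their median length was 265 bases, against 256 for all autosomal regions. A median of 93 Duroc and 57 Luchuan reads fell in a member, against 61 and 38 in all. Peaks were called in both breeds for 54.4% (53.8% to 55.1%) of members, in Duroc only for 31.8% and in Luchuan only for 13.8%, and the corresponding shares of all regions were 49.1%, 31.6% and 19.3%. Being called in both breeds moved with depth. Among regions with 100 or more reads the order was reversed, with 76.0% called in both in dense windows and 82.8% overall. Members with 20 to 99 reads over both breeds were called in both in 13.8% of cases, those with 100 to 299 reads in 59.0% and those with 300 or more in 96.9%. The 3493 members near a gene end had medians of 194 reads in Duroc and 120 in Luchuan. The 16556 members inside a gene and farther from its ends held 81 and 50, and the 4500 outside genes held 96 and 60. Only 28 members had fewer than 20 reads over both breeds.

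Most dense windows had a breed ratio close to 0. Members summed to 4439578 Duroc reads, 21.9% of all autosomal region reads, and 2869829 Luchuan reads, 21.3%, for a pooled log2 ratio of -0.04. The median window ratio was -0.04 with quartiles of -0.16 and 0.07, and 832 windows, 82.7%, lay within 0.25 of 0. A window was counted as different when its ratio reached 0.5 in either direction. This was so for 10 dense windows, 0.994%, in the Luchuan direction and 11, 1.09%, in the Duroc direction. The counts were 8 and 14 on a grid moved by 50 kb, and 13 and 22 when the member with the most reads was left out of each window. Among all 10666 autosomal windows with 5 or more regions the background was 4.52% higher in Luchuan and 4.59% higher in Duroc. In windows with 15 to 19 regions the shares were 1.48% and 2.35%. Windows with fewer regions also held fewer reads, with a median of 6642.5 reads in dense windows and 2248.5 in all windows with 5 or more regions, and the part of depth in the gap between these shares was not tested.

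Single members were called different at a 2-fold ratio with at least 20 reads over both breeds. Of the members, 486 (1.98%) leaned to Luchuan and 916 (3.74%) to Duroc, against a background of 6.84% and 4.96% of all 134241 regions with that many reads. With only regions of 100 or more reads the shares were 0.954% and 2.48% in dense windows, against 1.50% and 4.28% overall. Of the dense windows, 362, or 36.0%, held 0 members past the fold. The 10 windows counted as higher in Luchuan, 0.994% of dense windows, held 87 of the 486 Luchuan members. The 11 windows higher in Duroc, 1.09%, held 88 of the 916 Duroc members. These windows were themselves picked by the summed reads of their members. The share past the fold fell with reads, from 3.92% and 6.11% at 20 to 99 reads to 0.361% and 1.03% at 300 or more.

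**Figure D2:**
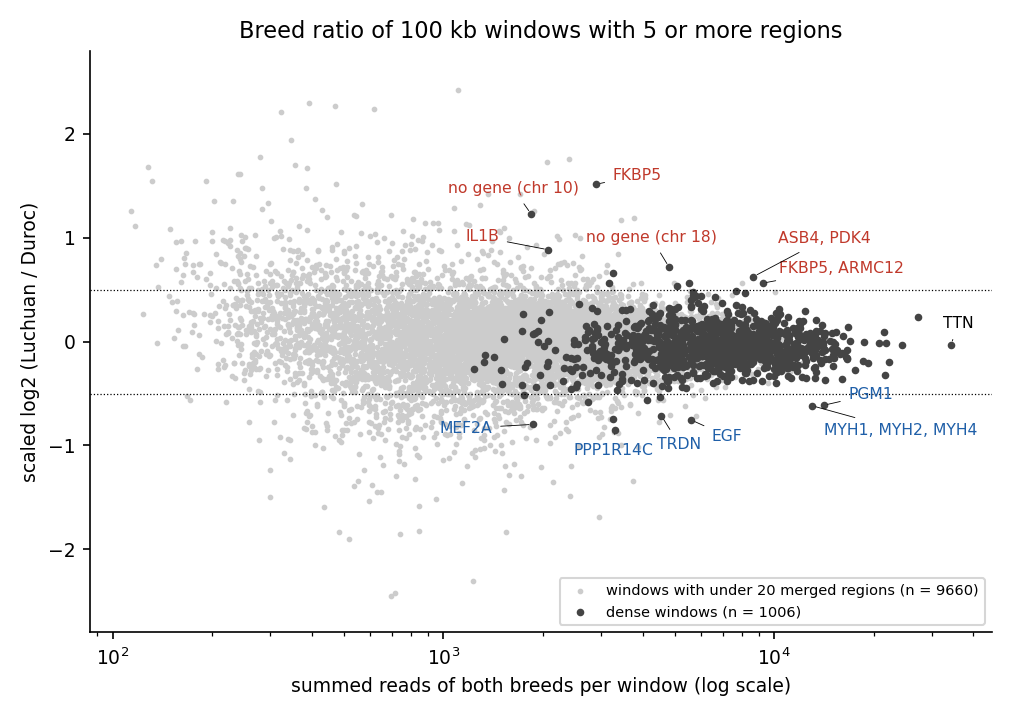
Scaled log2 ratio of Luchuan over Duroc against the summed reads of both breeds (log scale) for the 9660 other windows with 5 or more regions (grey) and the 1006 dense windows (dark), with dotted lines at 0.5 and -0.5. Dense windows crowd around 0 at high read sums, and 2 windows lie outside the plotted range of ratios.

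The dense window highest in Luchuan lay on FKBP5, a co-chaperone of HSP90 that dampens the glucocorticoid receptor and is itself a target gene of that receptor. The window chr7:31400001-31500000 had 23 members with 1000 Duroc and 1897 Luchuan reads (1.51, 1.40 to 1.63). Luchuan thus held more reads even before scaling, whereas 22679 of the 24549 members had more raw reads in Duroc. Each of the 23 members was above 0, from 0.99 to 2.60, and 22 passed the 2-fold limit. Peaks were called in both breeds for 9 of them, in Duroc only for 2 and in Luchuan only for 12. The member with the most reads, chr7:31473196-31473922, held 240 Duroc and 336 Luchuan reads (1.07, 0.83 to 1.32) and lay inside FKBP5, 31.8 kb from its nearer end. The neighbouring window chr7:31500001-31600000, which reaches ARMC12, had 30 members with 4658 Duroc and 4566 Luchuan reads (0.56, 0.50 to 0.62). All 30 were above 0 and 15 passed the fold. Over the gene body and 2 kb on each side, FKBP5 had 39 members with 2293 Duroc and 3263 Luchuan reads (1.10, 1.02 to 1.18).

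The next windows in that direction held no protein-coding gene or only IL1B. The window chr10:25000001-25100000 held no protein-coding gene, and the nearest, LOC102162336, was 23.4 kb away. Its 21 members held 721 Duroc and 1121 Luchuan reads (1.23, 1.09 to 1.36), all 21 were above 0 and 14 passed the fold. The window chr3:43600001-43700000 held IL1B, which encodes the inflammatory cytokine interleukin-1 beta. Its 20 members held 934 and 1144 reads (0.88, 0.76 to 1.01) and all lay above 0, and 4 of them lay near a gene end. The strongest, chr3:43634436-43635112, lay outside the gene at 35.4 kb and held 123 Duroc and 153 Luchuan reads. The window chr18:17900001-18000000 had 28 members with 2301 and 2510 reads (0.72, 0.63 to 0.80), all above 0, and its nearest protein-coding gene was MKLN1 at 67.5 kb. Over the 21 dense windows past the limit in either direction, between 65% and 100% of members shared the sign of their window. These windows were picked by the summed reads of the same members, so agreement of sign is partly built in.

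The window lowest in Luchuan, chr1:15800001-15900000, held PPP1R14C, an inhibitor of protein phosphatase 1. Its 28 members held 2415 Duroc and 890 Luchuan reads (-0.85, -0.96 to -0.74), and 12 passed the fold, all higher in Duroc. MEF2A, a transcription factor that drives muscle gene expression with the myogenic factors, followed at chr1:138400001-138500000. Its 27 members, all inside the gene and all below 0, held 1353 and 517 reads (-0.80, -0.95 to -0.65). Peaks were called in both breeds for only 3 of them and in Duroc only for 22. EGF, which encodes epidermal growth factor, lay at chr8:112200001-112300000 with 32 members and 4025 and 1584 reads (-0.75, -0.84 to -0.67), of which 31 were below 0 and 12 passed the fold. MED27, a subunit of the Mediator complex, lay at chr1:271800001-271900000 with 24 members and 2339 and 927 reads (-0.74, -0.86 to -0.63). Its strongest member, chr1:271815149-271815903, was called in Duroc only and held 368 Duroc and 75 Luchuan reads (-1.69, -2.08 to -1.34).

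The other windows past the fold, named after their values were seen, included several muscle genes. A window inside TRDN at chr1:39400001-39500000 had 38 members, all below 0, with 3249 Duroc and 1314 Luchuan reads (-0.71, -0.81 to -0.62). TRDN encodes triadin, which anchors calsequestrin to the ryanodine receptor. A window with PGM1, the phosphoglucomutase that links glycogen and glucose phosphate, and the receptor gene ROR1 lay at chr6:148800001-148900000. Its 36 members held 9832 and 4267 reads (-0.61, -0.67 to -0.56). Towards Luchuan, the window of PDK4, the kinase that shuts off pyruvate dehydrogenase in fasting, lay at chr9:75200001-75300000 within a region shared with ASB4. Its 29 members held 4276 and 4378 reads (0.63, 0.56 to 0.69), 28 were above 0 and 8 passed the fold. The window of GHR, the growth hormone receptor, at chr16:27300001-27400000 had 21 members with 1600 and 1569 reads (0.56, 0.46 to 0.66). Further windows lay on GPCPD1 (0.66), a window with HSD11B1 and G0S2 (0.57) and SIK2 with PPP2R1B (0.535) in that direction. DCAF5 (-0.58), SIM1 (-0.56), ADAMTSL1 (-0.53) and GAREM1 (-0.51) lay in the other. With the reads of all overlapping intervals of a region summed, the windows of SIK2 (0.49), FKBP5 with ARMC12 (0.48) and GAREM1 (-0.48) fell short of the limit.

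The window chr12:55200001-55300000 with the fast myosin heavy chain genes MYH4, MYH1 and MYH2 had 47 members with 9073 Duroc and 3927 Luchuan reads (-0.62, -0.67 to -0.56). Of its members 40 were below 0, and the 11 past the fold were all higher in Duroc. The tilt was not even along the cluster. MYH4, the myosin of the fastest (type IIb) fibers, had 15 members with 4118 and 1328 reads (-1.04, -1.13 to -0.95), and 11 of them passed the fold. The MYH4 body begins at position 55190545, before this window, and the part outside is not in its sum. MYH1, of type IIx fibers, had 21 members with 3638 and 1950 reads (-0.31, -0.39 to -0.23). MYH2, of type IIa fibers, had 11 with 1766 and 866 reads (-0.44, -0.56 to -0.32). The slow myosin gene MYH7, in a dense window on chromosome 7, had 7 members with 1833 and 844 reads (-0.53, -0.65 to -0.41). Myosin heavy chain genes are near-identical copies in places, and reads may have been assigned to the wrong copy, so the values of single copies are uncertain.

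**Figure D3:**
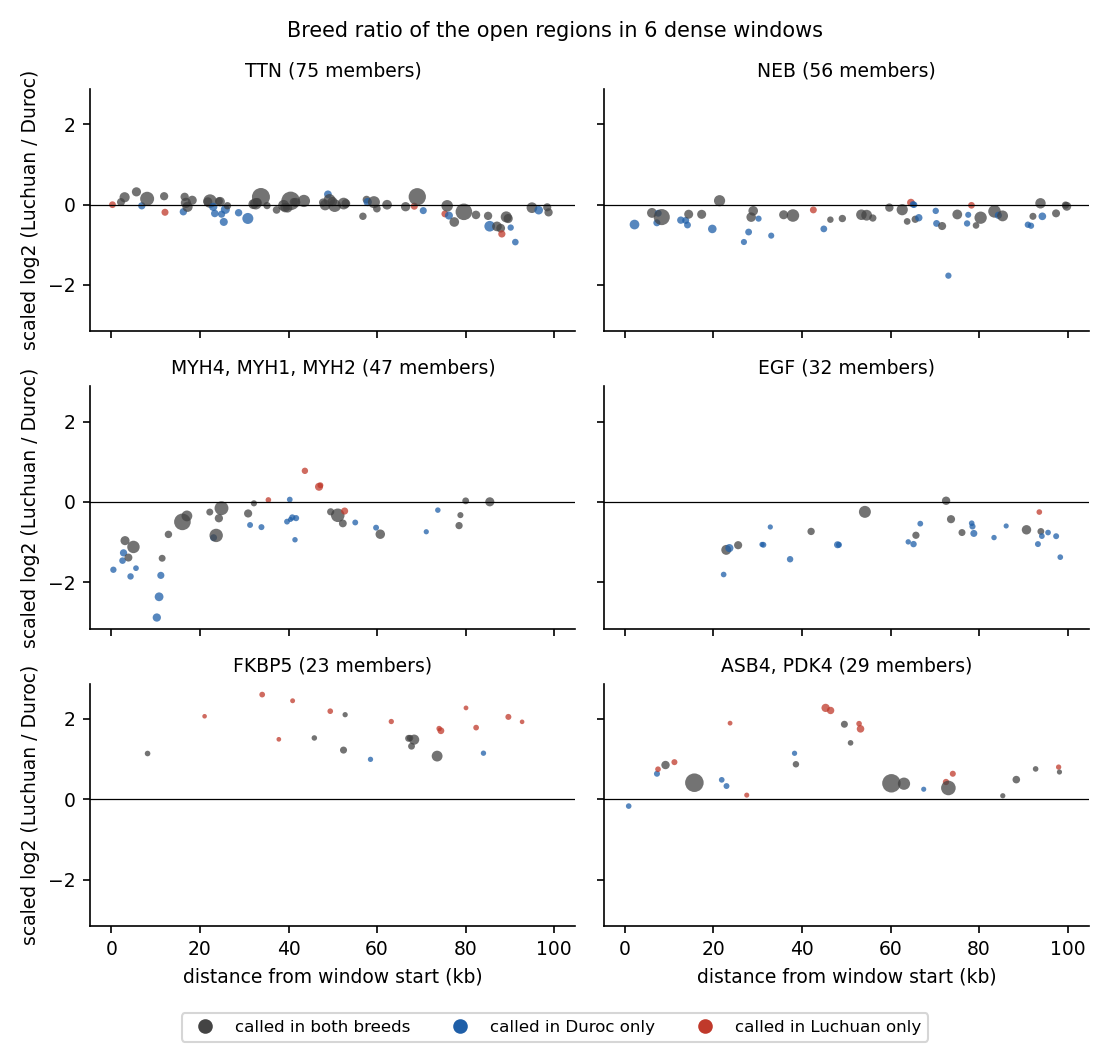
Scaled log2 ratio of Luchuan over Duroc for each member, against its distance from the window start in kb, in 6 dense windows. Point size grows with reads and color gives the breed in which the peak was called. The 23 FKBP5 members all lie above 0, the 75 TTN members lie around 0, and the MYH4 end of the myosin window holds its lowest values.

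Among members with 100 or more reads, the 3 highest and 3 lowest lay mostly in windows that were not themselves past the limit. The member chr9:75245100-75245574, inside ASB4 in the window shared with PDK4, held 69 Duroc and 224 Luchuan reads (2.27). Near the start of chromosome 15, chr15:26425-26985 held 33 and 215 reads (3.26) and chr15:22091-22611 held 36 and 142 (2.54), 73.6 and 77.9 kb from the nearest protein-coding gene. In the other direction, chr5:89498955-89499327, outside genes and 18.7 kb from CRADD, held 143 Duroc and 8 Luchuan reads (-3.46), and chr17:50987649-50987913, also outside genes, held 95 and 7 (-3.06). The member chr4:650548-651006 inside SPATC1 held 187 and 16 (-2.90).

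Dense windows often adjoined. Of 754 runs, 556 were single windows and 198 joined 2 or more, holding 450 windows. The longest run, chr1:77000001-77600000, joined 6 windows over SLC16A10 (an aromatic amino acid transporter), MFSD4B, REV3L (the catalytic subunit of a translesion DNA polymerase), LOC102167874, TRAF3IP2 (an adaptor of interleukin-17 signaling) and FYN (a Src family kinase). Its 157 members held 20290 Duroc and 15414 Luchuan reads (0.19, 0.16 to 0.22), and its windows ranged from -0.0005 to 0.34. A run of 5 windows, chr1:39100001-39600000, was occupied by TRDN with 166 members and 18156 and 8989 reads (-0.42, -0.46 to -0.39). Another run of 5, over SVIL, the gene of the actin-binding protein supervillin, had 134 members with 20579 and 12238 reads (-0.16, -0.19 to -0.13). Runs of 4 windows covered EYA4 (0.13), PDE4D, a cyclic AMP phosphodiesterase (0.28), NFIA (0.15) and SOX6 (-0.39). The run over NEB and RIF1 had 146 members (-0.32), and that over PLEKHA3, TTN and CCDC141 had 214 (0.05).

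Muscle gene lists were read against all genes. Of 18722 annotated autosomal protein-coding genes, 1946 (10.4%) overlapped a dense window. Genes of 200 kb or more did so in 16.1% of cases and genes under 10 kb in 8.72%. For sarcomere and Z-disc genes the count was 34 of 53 (64.2%), for excitation-contraction coupling and calcium handling 24 of 33 (72.7%), and for muscle transcription factors and regulators 28 of 57 (49.1%). It was 19 of 39 (48.7%) for glycolysis, glycogen and creatine phosphate, 19 of 46 (41.3%) for glucocorticoid, clock and growth signaling, 11 of 35 (31.4%) for mitochondria and fatty acid oxidation, and 11 of 39 (28.2%) for the extracellular matrix and dystrophin complex. As a check of the tissue, 11 of 14 muscle fiber markers overlapped a dense window. Among markers of other cells, 1 of 4 satellite cell genes did (MYF5, with 1 member), while 0 of 5 endothelial, 0 of 5 adipocyte, 0 of 5 fibro-adipogenic, 0 of 5 immune and 0 of 3 Schwann cell genes did.

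**Figure D4:**
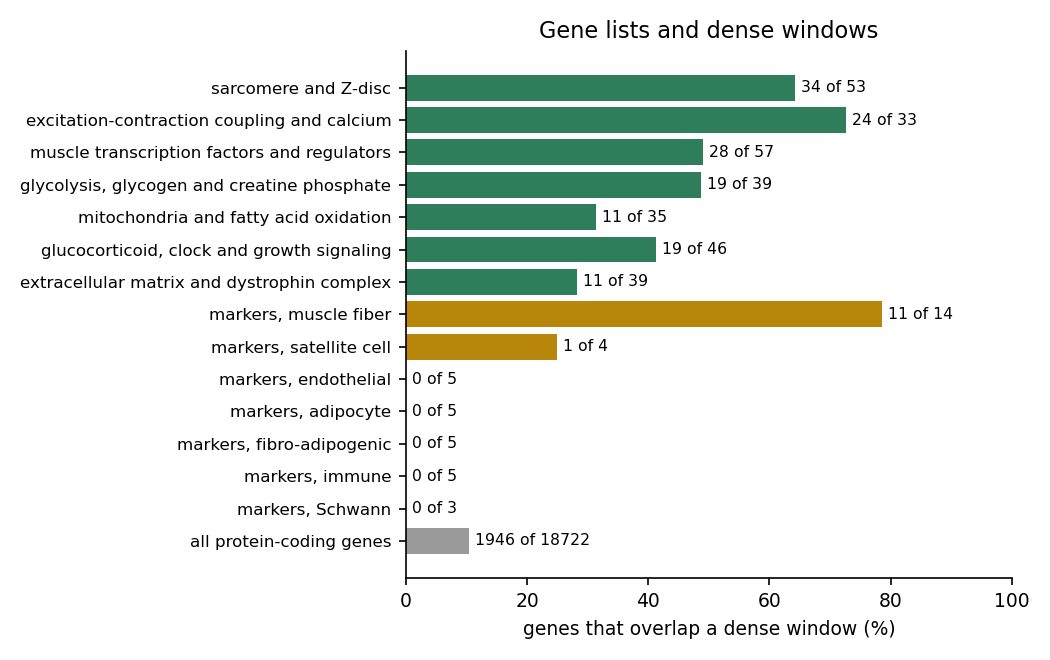
Share of the genes of each list that overlap a dense window (bars, percent of genes matched in the annotation, with counts at the bar ends), for gene lists (green), cell markers (ochre) and all protein-coding genes (grey). The 24 of 33 excitation-contraction genes and 34 of 53 sarcomere genes compare with 1946 of 18722 genes overall.

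Genes were summed over their members in dense windows, from 2 kb before to 2 kb after the gene body. Over the 1884 genes with a member the median log2 ratio was -0.04, with 1133 below 0 and 751 above, and 41 genes reached 0.5 while 85 reached -0.5. Overlapping genes share members. Directions below hold on the scale set by summed reads. The scale set by the median region shifted every ratio by -0.01 and left the sign of each list median as it was. Without scaling every ratio was lower by 0.59, which put all 7 list medians below 0.

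Structural muscle genes leaned towards Duroc. In the sarcomere list 26 of 34 genes were below 0 (median -0.15), and 2, MYH4 and MYH7, reached -0.5. Among all 1884 genes with a member, 1133 were below 0. TTN, with 186 members, held 49989 Duroc and 34745 Luchuan reads (0.07, 0.05 to 0.09). NEB, with 129 members, held 26523 and 13934 (-0.34, -0.37 to -0.31). PDLIM5, a Z-disc scaffold protein, had 63 members with 9472 and 6983 reads (0.15). Counted gene by gene over the 934 members of the list, 3 (0.321%) passed the fold towards Luchuan and 37 (3.96%) towards Duroc, where all members of dense windows gave 1.98% and 3.74%, so the Duroc share was near that of all members. The 11 fiber markers leaned the same way, with 10 below 0 and a median of -0.31, and they overlap the sarcomere list.

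In the excitation-contraction and calcium list 17 of 24 genes were below 0 (median -0.11), and 0 reached 0.5 in either direction. Among all 1884 genes with a member, 1133 were below 0. Counted gene by gene over the 618 members of the list, 2 (0.324%) passed the fold towards Luchuan and 33 (5.34%) towards Duroc. All members of dense windows gave 1.98% and 3.74%. TRDN had 155 members with 17325 Duroc and 8562 Luchuan reads (-0.43), of which 20 passed the fold towards Duroc. RYR1, the calcium release channel, had 48 members with 12129 and 6608 reads (-0.29). CACNA2D1, an accessory subunit of the voltage-gated calcium channel, had 48 members with 4660 and 2811 reads (-0.14). STIM1, the calcium sensor of the reticulum, had 45 members with 7423 and 5467 reads (0.15). Of the 4 genes with the most members, 3 were on the Duroc side.

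Muscle transcription factors were divided. Of the 27 with a member, 10 were below 0 and 17 above (median 0.04). Among all 1884 genes with a member, 1133 were below 0 and 751 above. Counted gene by gene over the 928 members of the list, 10 (1.08%) passed the fold towards Luchuan and 37 (3.99%) towards Duroc. All members of dense windows gave 1.98% and 3.74%. MBNL1 had 108 members with 16718 and 11150 reads (0.0067, -0.03 to 0.04). EYA4, a co-activator in myogenesis, had 100 with 11278 and 8227 (0.14), and NFIA, a nuclear factor I protein, had 86 with 9814 and 7562 (0.215). SOX6, a repressor of slow fiber genes, had 98 members with 6499 and 3296 reads (-0.39, -0.45 to -0.33), of which 11 passed the fold towards Duroc. MEF2C, named after its values were seen, was at -0.25 with 10 such members among its 52, beside MEF2A at -0.80. The myogenic factors MYOD1 (5 members, 1575 and 1097 reads, 0.07) and MYF6 (4 members, 2201 and 1594 reads, 0.13) lay near 0. MYF5 had a single member with 73 and 70 reads (0.52, 0.04 to 1.02).

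Glycolysis and glycogen genes lay mostly below 0, with 14 of 19 there and a median of -0.08. Among all 1884 genes with a member, 1133 were below 0 and 751 above. Over the 199 members of the list, 6 (3.02%) passed the fold towards Luchuan and 11 (5.53%) towards Duroc. All members of dense windows gave 1.98% and 3.74%. PGM1 had 31 members with 9365 Duroc and 5127 Luchuan reads (-0.28), PPP1R3A, the subunit that targets phosphatase 1 to glycogen, had 26 (-0.06), PHKB, a phosphorylase kinase subunit, had 26 (0.11) and AMPD1, the muscle AMP deaminase, had 14 (-0.33). PDK4 stood apart from the list with 7 members, 1288 Duroc and 1651 Luchuan reads (0.95, 0.84 to 1.06), of which 6 passed the fold. Of the mitochondrial and fatty acid genes 9 of 11 were above 0, with a median of 0.09. The counting intervals of SLC25A12, IDH2, PLIN5 and PPARA, which are among the 9, included 0. Over the 111 members of the list, 1 (0.901%) passed the fold towards each breed. CD36, a fatty acid transporter, had 25 members with 1795 and 1465 reads (0.30, 0.20 to 0.40). SLC25A12, the aspartate-glutamate carrier, had 20 (0.09, -0.02 to 0.19), and OGDH of the citric acid cycle had 19 (-0.11). LIPE, the hormone-sensitive lipase, named after its values were seen, had 5 members and the highest ratio of this list (0.36).

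In the glucocorticoid, clock and growth list 15 of 19 genes were above 0 (median 0.07), against 751 of all 1884 genes with a member. In this list 2 genes reached 0.5. Those were FKBP5, with 31 of its 39 members past the fold, and CEBPD, a transcription factor induced by glucocorticoids and inflammation, with 6 members and 1836 Duroc and 1926 Luchuan reads (0.66, 0.57 to 0.75), of which 0 passed the fold. RORA, a nuclear receptor of the clock, had 131 members with 18291 and 11389 reads (-0.09). ZBTB16, a zinc finger protein induced by glucocorticoids, had 75 with 18873 and 13389 (0.10), and GRB10, an adaptor that restrains insulin signaling, had 40 (0.11). NR3C1, the glucocorticoid receptor, had 26 members with 3191 and 2172 reads (0.04, -0.04 to 0.12). FBXO32, the atrophy ubiquitin ligase (0.30), DDIT4, an inhibitor of mTOR signaling (0.41), and NR1D1 of the clock (-0.22) were named after their values were seen. Counted gene by gene over the 516 members of the list, 35 (6.78%) passed the fold towards Luchuan and 6 (1.16%) towards Duroc, against 1.98% and 3.74% of all members of dense windows, and FKBP5 held 31 of the 35.

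Extracellular matrix and dystrophin complex genes also lay mostly below 0, with 8 of 11 there and a median of -0.10. Among all 1884 genes with a member, 1133 were below 0. Over the 215 members of the list, 6 (2.79%) passed the fold towards Luchuan and 7 (3.26%) towards Duroc. All members of dense windows gave 1.98% and 3.74%. SGCD, the delta-sarcoglycan gene, had 41 members with 5064 and 3128 reads (-0.10). LAMC1, a laminin chain, had 28 (0.01), SNTB1, a syntrophin, had 23 (0.16) and DAG1, dystroglycan, had 22 (-0.08). Their range from -0.21 to 0.16 was the narrowest of the 7 lists. This list and the mitochondrial list also had the fewest genes with a member, 11 each.

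**Figure D5:**
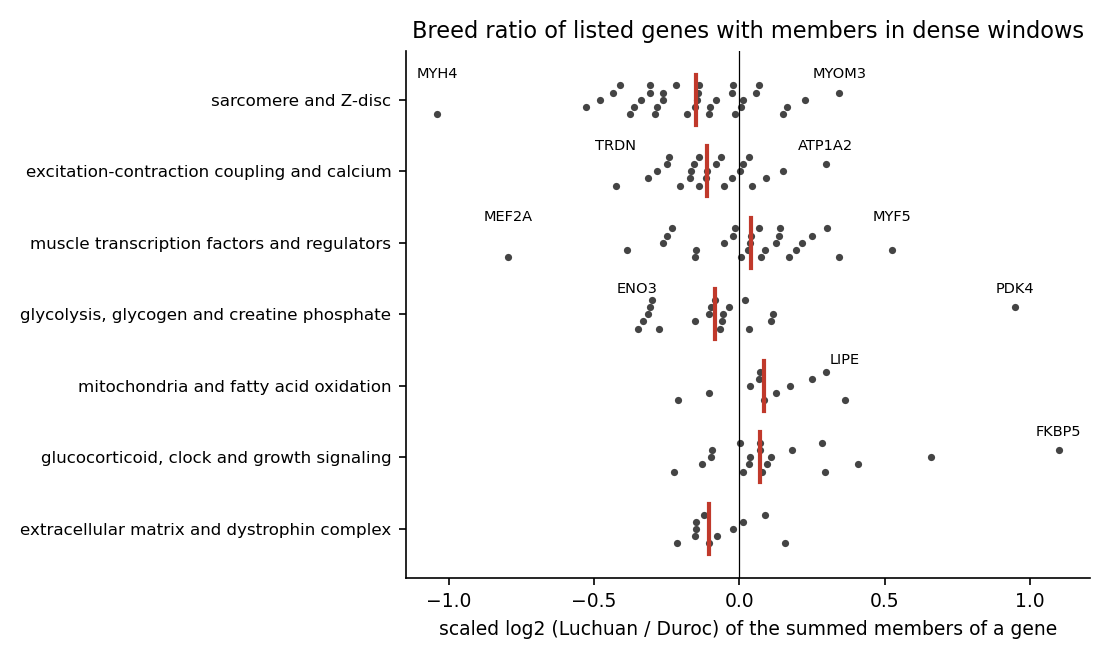
Scaled log2 ratio of Luchuan over Duroc of each listed gene, summed over its members in dense windows (points), with the median of the list as a red bar. The lowest and highest gene of a list are labelled where they lie 0.25 or more from 0, from MYH4 at -1.04 to FKBP5 at 1.10.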

How the data were processed

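ATAC-seq peaks of 2 breeds were analysed. Per the labels and the study's methods, reads were trimmed (Trimmomatic, 0.36), mapped to the Sscrofa11.1 build by Bowtie2, and peaks were called by MACS2. What the authors deposited are unscaled whole-number counts of reads, 1 per interval and breed. The count columns name a breed and no boar, and were read as pooled over boars. Removal of duplicates and the shift for the transposase are not given in the sources used here. The authors' own comparison columns (rescaled log2 fold change, average signal and p-value) were not used. Other columns of per-sample values numbered 0.

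Starts were read as 0-based and are printed 1-based. Intervals overlapping by 1 base or more were merged, each region represented by its longest interval. Gene bodies came from RefSeq (Sscrofa11.1) without strand or exons. Ratios of single regions had 1 read added to each count. Named windows were the 8 with the most regions, the 4 highest and 4 lowest, and the longest run. Named genes were the 4 of each list with the most members, and some of these are not reported here. Members and lists were chosen with earlier results of these data known. With 1 count per breed there was no test. Computation used SciPy 1.17.1 and pandas 2.3.3 on NumPy 2.4.6 (Python 3.11.15), plots used Matplotlib 3.10.9, and the scripts were tested on simulated data. Alternatives were other grids, minimums, merging, scaling and folds.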

Additional observations from a re-analysis of the deposited data

How the results depend on the processing

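No paired analysis was possible because each breed has a single pooled count, and for the same reason no boar could be left out. On a grid moved by 50 kb there were 997 dense windows, 8 of them higher in Luchuan and 14 in Duroc, and the median window ratio was -0.0492 (-0.0421 as reported). With a minimum of 15 regions there were 2497 windows and 49405 members, a median of -0.0385, 32 windows higher in Luchuan and 46 in Duroc, 1316 and 2099 members past the fold, 16.1% of members near a gene end and 53.6% called in both breeds. With a minimum of 25 there were 351 windows and 10394 members, a median of -0.0535, 3 and 6 windows, 160 and 341 members, and 11.9% near a gene end. Without merging, 3534 windows were dense, since overlapping intervals then count more than once. Scaling by the median region moved the median to -0.0557. Without scaling it was -0.6332, with 2 and 786 windows and 90 and 5025 members past the fold, and the windows of SIK2 (-0.0561), FKBP5 with ARMC12 (-0.0288), GHR (-0.0282) and HSD11B1 with G0S2 (-0.0256) changed sign. A log2 limit of 1 left 2 windows higher in Luchuan and 0 in Duroc, and a limit of 2 left 33 and 62 members. Within 1 kb and 5 kb of a gene end lay 9.54% and 22.9% of members. After the data were seen, 2 alternatives were added. Without the member with the most reads in each window 13 windows passed the fold towards Luchuan and 22 towards Duroc, and scaling by the regions outside dense windows gave a median of -0.0528. Of the 21 windows past the fold, 18 stayed past it with all rows of a region summed, 13 without scaling and 21 with the median scaling.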

Other observations

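The X chromosome, which the rule left out, had 669 windows with a region, of which 17 held 20 or more and the densest held 35. The Y chromosome had 53 windows and 0 dense ones.

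Beside the dense window chr18:17900001-18000000, the next window, chr18:18000001-18100000, held the microRNA genes MIR29A and MIR29B-1. Its 21 members held 3315 Duroc and 2752 Luchuan reads, a scaled log2 ratio of 0.32, against 0.72 in the window beside it.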
